A study of Danio rerio with 3 samples.

Results

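The entries that the deposited zebrafish expression table types as noncoding RNA were examined in larvae exposed to BDE47, a tetrabrominated diphenyl ether flame retardant. Of the 21098 entries in the table, 753 carried this type. The pooled entry wu was left out, because its name is only a clone prefix, and 752 entries remained. Whole larvae of the Tuebingen strain were sampled at 6 dpf, and a pool of larvae per condition was sequenced once. BDE47 was given at 5 μg/L, here the low dose, or at 500 μg/L, the high dose. The DMSO solvent was present in all 3 conditions and served alone as the vehicle control. Each value is a TMM-normalized count, that is, the number of reads on an entry after scaling between the libraries. Because each condition had 1 library, no test between conditions was possible, and an entry was counted as changed by size alone: a ratio of 2 or more, or of 0.5 or less, where either library of the pair reached 10 normalized counts. The 95% counting intervals given with the ratios are Clopper-Pearson intervals of the share of reads. They cover counting error only, since variation among larvae, pools and preparations was not sampled.

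Noncoding RNAs act without being translated. MicroRNA precursors are cut to short guides that Argonaute proteins use to repress mRNAs, antisense transcripts run opposite to a gene and can pair with its mRNA, and small RNAs such as 7SK and the RNA of RNase P work inside protein complexes. Genomes also hold many pseudogenes and retrotransposon copies, which annotation pipelines often file as noncoding when no intact reading frame is found, and the zebrafish genome is rich in both. RNA was selected by oligo(dT) and fragmented for these libraries, a protocol that is aimed at polyadenylated transcripts and not at mature microRNAs.

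The reads counted on the entries of the table, as recovered from the normalized values, were 41474296 in DMSO vehicle, 30463582 at the low dose and 27004647 at the high dose, and the 752 entries held 0.0642%, 0.0616% and 0.0629% of them in the same order. After scaling, a single read counted as 0.790 in DMSO vehicle, 1.09 at the low dose and 1.249 at the high dose, so 3 reads, the floor for an entry with no read, corresponded to 2.37, 3.28 and 3.75 normalized counts. Markers of 8 larval tissues were present in every library, with 890.7 normalized counts or more for each of the 11 markers, as the label whole larvae requires. Their levels were not equal between libraries. At the high dose against DMSO vehicle, opn1sw1 of photoreceptors had 14324 against 72288, fabp10a of liver 17266 against 43714 and krt4 of skin 97549 against 219150. The erythrocyte marker hbbe1 (13978 against 7509) and the muscle marker myhz1 (417374 against 403149) were higher, and the other markers were lower. In such bulk samples fewer cells of a type and less RNA per cell cannot be told apart.

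The label noncoding was borne out by the descriptions for a minority of the entries. Only 61 of the 752 (8.11%) were described as a class of noncoding RNA, namely 55 microRNAs, 4 antisense RNAs, the RNase P RNA rpph1 and the 7SK RNA rn7sk. Another 15 were described as pseudogenes, most of them of odorant receptors. A human protein match was listed for 543 entries (72.2%). Of these, 231 matched RTL1 and 39 matched PEG10, human genes derived from Ty3/gypsy retrotransposons, while 8 matched the integrase-derived gene GIN1. By description or match, 299 entries were retrotransposon-like, 83 resembled zinc finger proteins, 24 resembled NLR proteins, the intracellular sensors of innate immunity named after NACHT and leucine-rich repeat domains, and 16 resembled PIM kinases. A further 151 had some other protein match, and 103 had neither a description nor a match. In the current RefSeq table (assembly GRCz12tu), 168 of the 752 were found, and 75 of these are now typed as protein-coding, 54 as microRNA, 30 as pseudogene, 5 as long noncoding RNA, 2 as antisense RNA, 1 as RNase P RNA and 1 as small nuclear RNA. None of the 299 retrotransposon-like entries was found there. The set is therefore described by what each entry resembles.

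Most of the entries were close to the limit of detection. The median was 4 reads per entry in DMSO vehicle, 2 at the low dose and 3 at the high dose, where named mRNA entries had medians of 312, 221 and 193 reads. In all, 30 entries had no read in any library, 438 had a read in every library, and 481 stayed under 10 normalized counts throughout. Of the 271 that reached 10 normalized counts somewhere, 95 reached 50 and 57 reached 100. The highest value was 1125.5 normalized counts in DMSO vehicle, 1010.1 at the low dose and 1307.9 at the high dose. The description went with the level: each of the 24 NLR-like entries reached 10 normalized counts, as did 62 of 83 zinc finger-like entries, 72 of 299 retrotransposon-like entries and 4 of 55 microRNAs. These levels are not divided by transcript length, so their order is an order of reads and not of molecules.

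**Figure D1:**
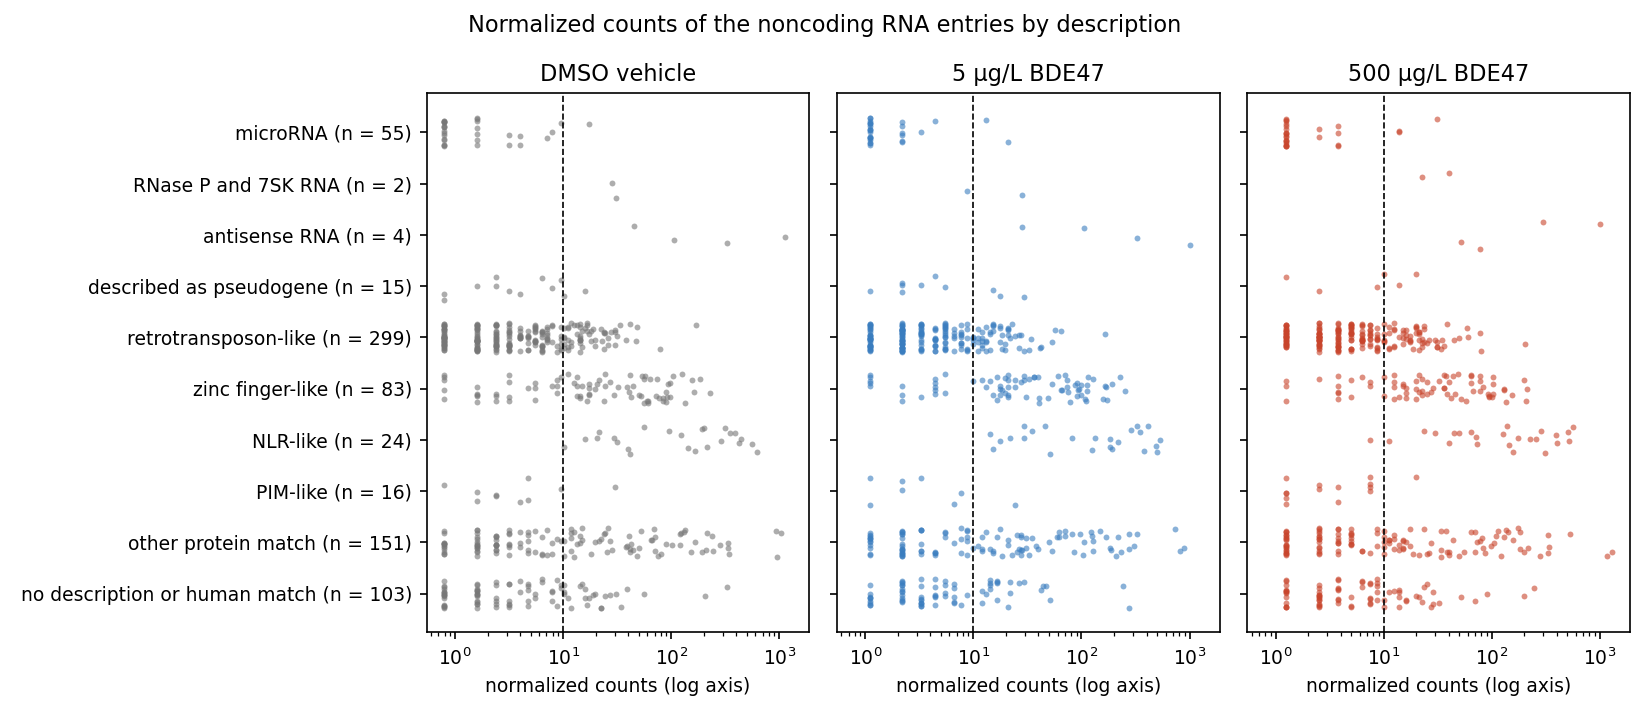
Normalized counts (log axis) of the 752 noncoding RNA entries in DMSO vehicle and at the low (5 μg/L) and high (500 μg/L) dose, 1 point per entry with a read, grouped by description with the number of entries in each group; the dashed line marks 10 normalized counts. The 24 NLR-like entries lie mostly above the line, and the 55 microRNAs and 299 retrotransposon-like entries lie mostly below it, in all 3 libraries.

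The antisense entries held the most reads of the described RNA classes, and none of the 4 passed the 2-fold criterion at either dose. The highest was grnas, the granulin antisense RNA, with 1125.5 normalized counts in DMSO vehicle, 1010.1 at the low dose and 1015.6 at the high dose. Its ratios to DMSO vehicle were 0.902 at the high dose (95% CI 0.827 to 0.984) and 0.897 at the low dose (0.825 to 0.976). In RefSeq this entry overlaps grn1 and grn2, which belong to the granulin family of secreted growth factors. Against DMSO vehicle grn2 had a ratio of 0.722 at the high dose and 0.893 at the low dose, and grn1 had 1.11 and 0.943. The antisense RNA of slc34a2a, a sodium phosphate cotransporter gene, had 325.6, 323.6 and 296.1 normalized counts in DMSO vehicle and at the low and high doses. The gene slc34a2a itself had 1546.8, 1518.4 and 1447.9, so that both were within 10% of DMSO vehicle at both doses. LOC100500728, the antisense RNA of tie1, a receptor tyrosine kinase of endothelium, had 105.1, 104.9 and 77.5 normalized counts from vehicle to the high dose. At the high dose its ratio of 0.737 had an interval of 0.536 to 1.00, where tie1 had a ratio of 1.04.

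Both grnaas, the antisense RNA of granulin a, and its gene grna had their lowest value at the low dose. The antisense entry had 45.1 normalized counts in DMSO vehicle, 28.4 at the low dose and 52.5 at the high dose, and grna had 369.1, 161.8 and 386.0. At the low dose the ratio was 0.631 (0.381 to 1.02) for grnaas and 0.438 for grna, which passed the 2-fold criterion. The counting was not stated to use strand, and without strand the reads of an antisense entry and its overlapping gene cannot be told apart. Summed over the 4 antisense entries, the ratio to DMSO vehicle was 0.900 at the high dose (0.837 to 0.968) and 0.916 at the low dose (0.854 to 0.982). This sum mostly repeats grnas, which held 1125.5 of the 1601.3 normalized counts in DMSO vehicle. The intervals of the other antisense entries include 1 at both doses, and grnaas had a ratio of 1.16 at the high dose.

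**Figure D2:**
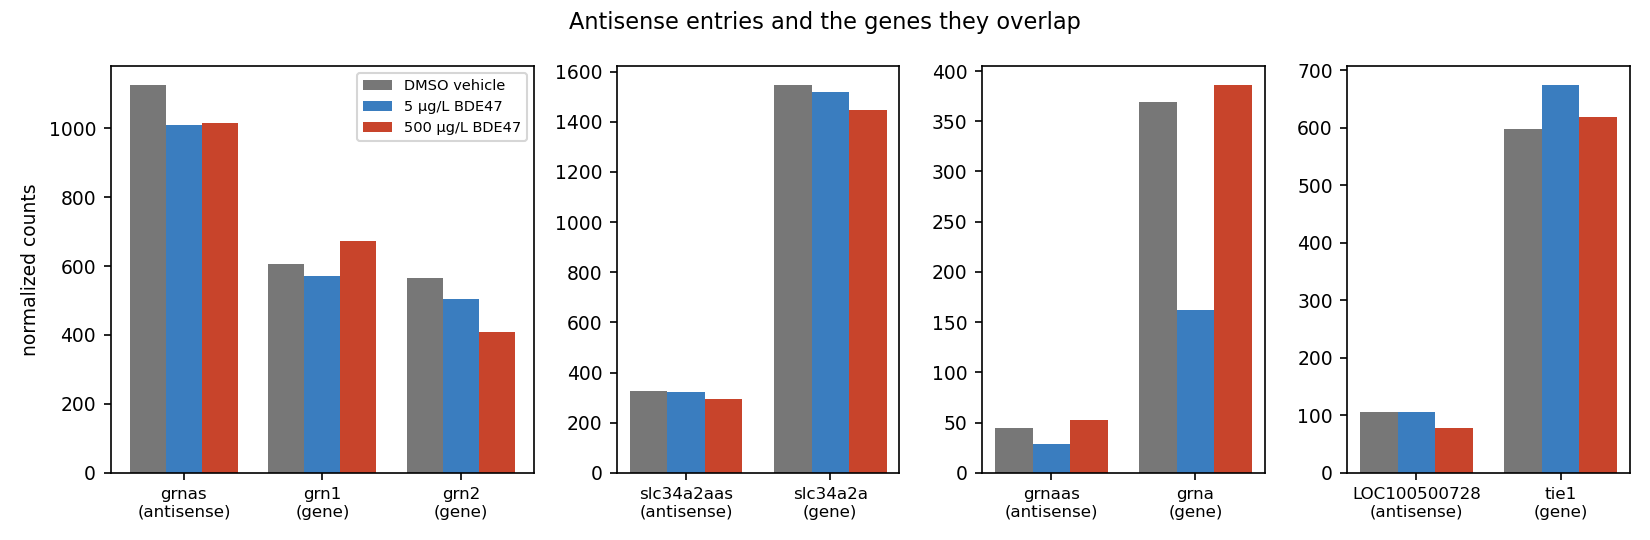
Normalized counts of the 4 antisense entries and the genes they overlap (bars, 1 library per condition, each panel with its own axis from 0) in DMSO vehicle and at the low (5 μg/L) and high (500 μg/L) dose. The grnaas and grna bars are both lowest at 5 μg/L (28.4 and 161.8 normalized counts), and LOC100500728 is lowest at 500 μg/L (77.5).

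The 2 RNAs of large complexes had few reads. The gene rpph1 encodes the catalytic RNA of RNase P, which trims the leader of precursor tRNAs, and it had 28.5 normalized counts in DMSO vehicle, 8.75 at the low dose and 22.5 at the high dose. These came from 36, 8 and 18 reads. It passed the 2-fold criterion at the low dose with a ratio of 0.307 (0.123 to 0.672), and its overlapping gene parp2 had a ratio of 1.01 there. The 7SK RNA, which holds back the elongation factor P-TEFb, had 30.8, 28.4 and 39.98 normalized counts in DMSO vehicle and at the low and high doses. Its ratios were 1.30 at the high dose (0.786 to 2.12) and 0.922 at the low dose (0.539 to 1.55), and both intervals include 1. How evenly the oligo(dT) selection recovered these 2 RNAs in the 3 libraries was not tested.

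The 55 microRNA entries shared 101 reads in DMSO vehicle, 69 at the low dose and 82 at the high dose. Over the 3 libraries 6 had no read, 33 had 1 to 3 reads and 5 had more than 10. The most abundant, mir2193, had 17.4 normalized counts in DMSO vehicle, 20.8 at the low dose and 31.2 at the high dose. Its ratio at the high dose was 1.80 with an interval of 0.972 to 3.34. The other named ones were mir29b-1 with 12, 3 and 11 reads, mir429b with 10, 12 and 1 reads and mir142b with 9, 2 and 1 reads, in DMSO vehicle and at the low and high doses. The entry mir132-2, chosen after its values were seen, was the only microRNA past the 2-fold criterion against DMSO vehicle, with 11 reads at the high dose against 1 read in DMSO vehicle. The ratio was 17.4, with an interval of 2.53 to 748, and 1 read was found at the low dose. At this depth a change of most microRNA precursors was not detectable.

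The 10 highest entries in DMSO vehicle were grnas, 3 entries with other protein matches and 6 NLR-like entries, and all had ratios between 0.578 and 1.27 at the high dose. LOC100303724, described as SH3 domain containing ring finger 1-like and typed in RefSeq as a pseudogene, had 1028.3 normalized counts in DMSO vehicle, 896.4 at the low dose and 1307.9 at the high dose. LOC100148045, which resembles elongation factor 1-delta, a subunit of the exchange factor that recharges elongation factor 1-alpha, had 957.2, 817.7 and 1171.8. LOC100005000 was the one of the 10 farthest from DMSO vehicle. It resembles neuron navigator 1, a microtubule-associated protein of migrating neurons, and it had 925.6 normalized counts in DMSO vehicle, 740.1 at the low dose and 534.7 at the high dose, a graded series. The ratios were 0.578 at the high dose (0.516 to 0.646) and 0.800 at the low dose (0.726 to 0.880). In RefSeq it overlaps tnni1b and csrp1b, which had ratios of 1.28 and 1.39 at the high dose. The NLR-like entries LOC100334601, LOC100334202, LOC100535517, LOC561457, LOC100332011 and LOC100536663 had between 350.9 and 622.8 normalized counts in DMSO vehicle, and their ratios ran from 0.812 to 1.21 at the high dose and from 0.846 to 1.19 at the low dose.

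At the high dose against DMSO vehicle, 45 of the 259 entries with 10 normalized counts passed the 2-fold criterion (17.4%), where 12.2% of all 18470 named entries of the table did. Of these, 30 were higher and 15 were lower at the high dose, against table-wide shares of 7.44% higher and 4.73% lower. The noncoding entries were shallow, with a median of 29.98 normalized counts in the higher library against 371 for mRNA entries, and the shares differed with depth. Between 10 and 50 normalized counts 39 of 167 entries passed (23.4%), against 23% of all entries in that range. With at least 50, 6 of 92 passed (6.52%), against 10.3%. The counting interval lay beyond 1 for 37 of the 45 and beyond 2-fold for 6. Among the 2248 changed entries of the whole table it lay beyond 1 for 2082 and beyond 2-fold for 970. The median log2 ratio of the 259 entries was 0.03, and that of mRNA entries was -0.02. Nearest to the limits, LOC100332314 was just inside with a ratio of 2.00 and LOC100002283 just outside with 1.99, and on the lower side LOC100535680 was inside with 0.494 and LOC100536182 outside with 0.510.

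**Figure D3:**
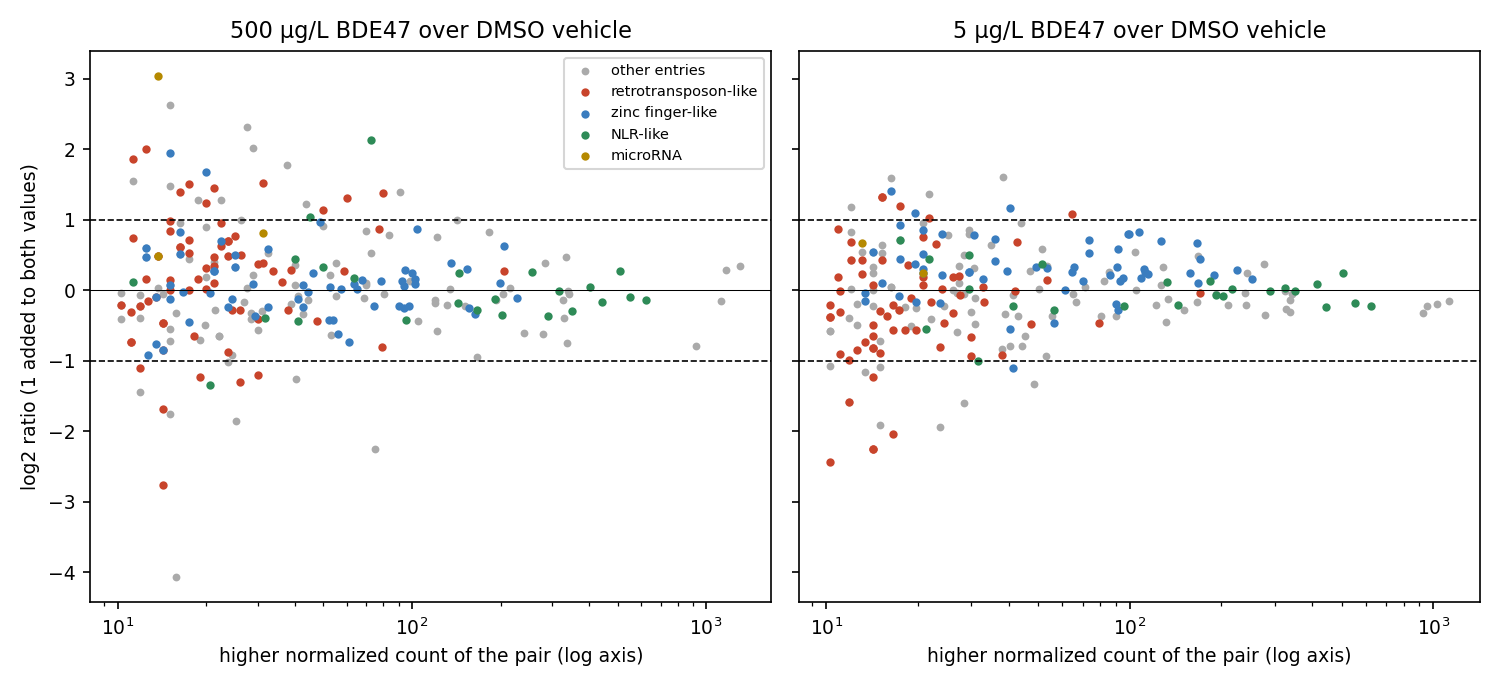
Log2 ratio to DMSO vehicle (1 added to both values) at 500 μg/L (left) and 5 μg/L BDE47 (right) against the higher of the 2 normalized counts (log axis), 1 point per noncoding RNA entry with at least 10 normalized counts (259 and 251 entries), coloured by description; dashed lines mark a 2-fold ratio. Most points beyond the lines lie below 50 normalized counts, 39 of the 45 entries with a 2-fold ratio of the values themselves at 500 μg/L and 31 of 32 at 5 μg/L.

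Among entries with at least 50 normalized counts, 5 were higher and 1 was lower at the high dose. Where the spread between replicates was assumed as a coefficient of variation (BCV) of 0.2, edgeR's exact test called LOC100005516 and LOC100005420 among these 6, and with 0.4 it called 0. LOC100005516, an NLR-like entry described as resembling NACHT, LRR and PYD domains-containing protein 3, had 15.8 normalized counts in DMSO vehicle, 21.9 at the low dose and 72.5 at the high dose. Its ratio of 4.58 at the high dose (2.72 to 8.05) compares with 0.966 (0.927 to 1.01) for the sum of the 24 NLR-like entries. LOC100536206, an uncharacterized entry typed in RefSeq as a pseudogene, had 34.0, 51.4 and 91.2 normalized counts from vehicle to the high dose, with a ratio of 2.68 at the high dose (1.82 to 4.01). Its nearest mRNA neighbour LOC100331417 had 142.3, 167.3 and 399.8, a ratio of 2.81 at the high dose (2.33 to 3.39). The 2 neighbours thus had their highest values in the same library.

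The RTL1-matched entry LOC100534906 had 30.04 normalized counts in DMSO vehicle, 64.5 at the low dose and 79.95 at the high dose. It passed the criterion at both doses, with ratios of 2.66 at the high dose (1.75 to 4.09) and 2.15 at the low dose (1.40 to 3.32), but at the low dose not with a pseudocount of 5 (1.98). A second RTL1-matched entry, LOC100536546, had 23.7, 24.0 and 59.96 normalized counts and was higher at the high dose alone (2.53, 1.57 to 4.13). LOC100332314 resembles SAR1b, a small GTPase of the COPII coat that buds vesicles from the endoplasmic reticulum. It had 71.1 normalized counts in DMSO vehicle, 85.3 at the low dose and 142.4 at the high dose, a ratio of 2.00 at the high dose (1.51 to 2.67). It fell short of the criterion with scaling to the library total (1.95) and with a pseudocount of 5 (1.94).

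The lower entry was LOC100005420, described as transmembrane protease serine 6-like. RefSeq now types it as protein-coding and names it tmprss6, which in mammals encodes a liver protease that holds down the iron hormone hepcidin. It had 75.1 normalized counts in DMSO vehicle, 82.0 at the low dose and 15.0 at the high dose, from 95, 75 and 12 reads. The ratio at the high dose was 0.20 (0.0997 to 0.365) and that at the low dose was 1.09 (0.796 to 1.49). LOC100147916, described as an alpha-1-antitrypsin homolog, the main plasma inhibitor of neutrophil elastase in humans, had 48.2 normalized counts in DMSO vehicle, 18.6 at the low dose and 83.7 at the high dose. It was below DMSO vehicle at the low dose (0.385, 0.211 to 0.669) and above it at the high dose (1.74, 1.21 to 2.50), and the dose comparison gave 4.50 for 500 over 5 μg/L (2.62 to 8.18).

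**Figure D4:**
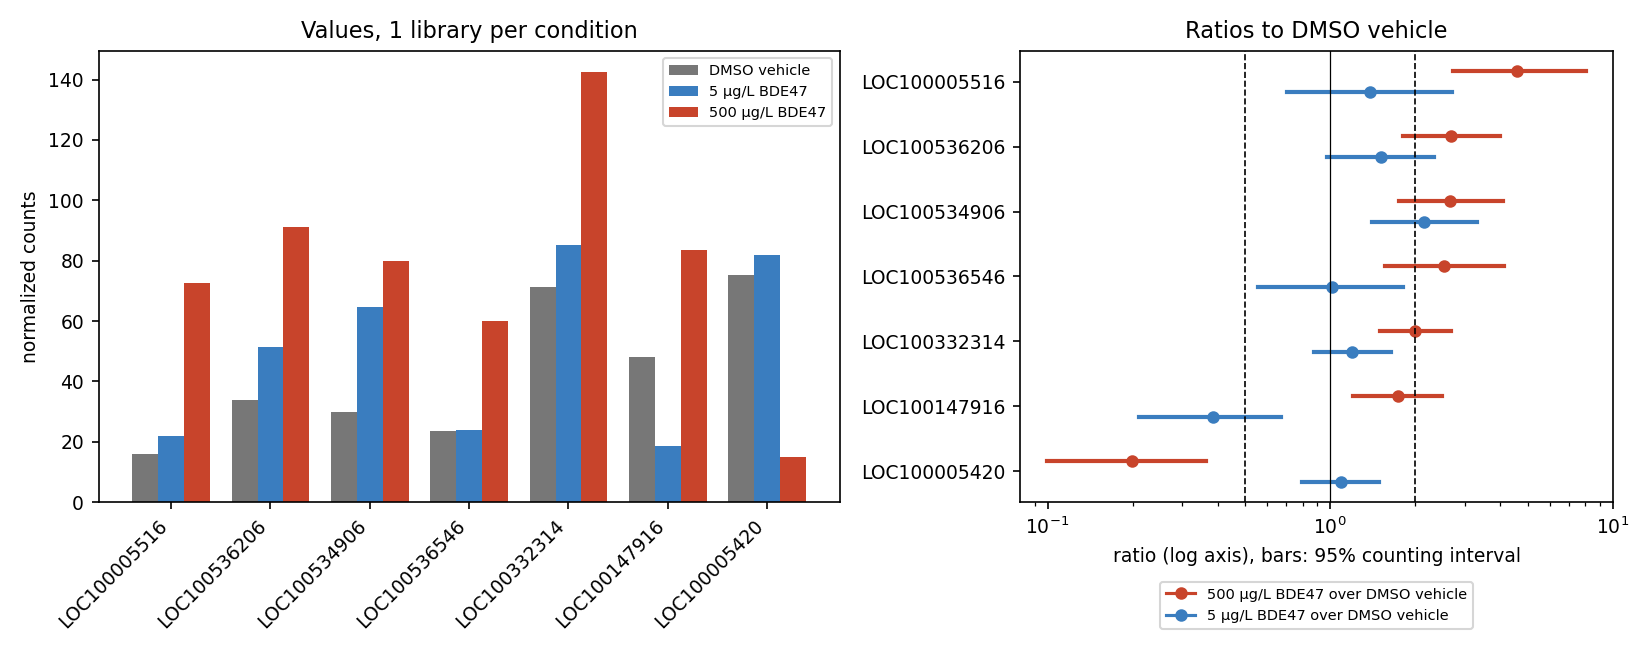
Left, normalized counts in DMSO vehicle and at the low (5 μg/L) and high (500 μg/L) dose (bars from 0, 1 library per condition) of the 7 entries past the 2-fold criterion in a comparison with at least 50 normalized counts; right, their ratios to DMSO vehicle (log axis) with 95% counting intervals, and dashed lines at 0.5 and 2. LOC100005516 has the highest ratio at 500 μg/L (4.58) and LOC100005420 the lowest (0.20), and LOC100147916 lies on opposite sides of 1 at the 2 doses.

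Below 50 normalized counts, 25 entries were higher and 14 lower at the high dose, and the larger of the 2 libraries had a median of 19 reads for the 45 entries. By description the 30 higher entries were 12 retrotransposon-like entries, 9 with other protein matches, 4 without description or match, 2 zinc finger-like, 2 NLR-like and 1 microRNA. The 15 lower ones were 6 retrotransposon-like entries, 5 with other protein matches and 1 each of the NLR-like, zinc finger-like, pseudogene and undescribed entries. The next 4 entries were chosen after their values were seen. LOC567498, which matches the dopamine receptor DRD5, had 12 reads at the high dose against 2 in DMSO vehicle. The pseudogene LOC100005415, of an alpha-galactosyltransferase, had 0 reads at the high dose against 20 in DMSO vehicle, at least 4.22-fold lower taking the floor of 3 reads, and it had 27 reads at the low dose. Among the lower entries, LOC798588 matches TRIM16 and LOC100536390 matches TRIM25, both of the tripartite motif family of ubiquitin ligases. They had ratios of 0.403 (0.201 to 0.752) and 0.247 (0.0751 to 0.639).

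At the low dose against DMSO vehicle, 32 of 251 entries passed the criterion (12.7%), where 3.05% of all 18374 named entries did. There were 14 higher and 18 lower entries, against table-wide shares of 1.02% and 2.03%. Again the shares followed the depth, with 31 of 162 entries between 10 and 50 normalized counts (19.1%, against 15.3% of all entries in that range) and 1 of 89 with at least 50 (1.12%, against 0.854%). That 1 entry was LOC100534906, which did not pass with a pseudocount of 5. The counting interval lay beyond 1 for 23 of the 32 and beyond 2-fold for 0, against 439 and 66 of the 560 changed entries of the whole table. The median log2 ratio of the 251 entries was 0.01, as it was for mRNA entries. Just inside and outside the limits stood LOC100535335 (2.01) and LOC100538022 (1.98), and LOC100001769 (0.494) and LOC100537035 (0.510). Beside rpph1 and LOC100147916, which are described above, the lower entries with the most reads were LOC561535, which matches the zinc finger gene ZMAT3, and the NLR-like LOC100333957. Both were chosen after their values were seen. LOC561535 had 17 reads at the low dose against 52 in DMSO vehicle (0.452, 0.245 to 0.795), and LOC100333957 had 14 against 40 (0.484, 0.243 to 0.909).

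Both doses share the DMSO vehicle library, so their counts of changed entries are not independent. In the direct comparison of 500 over 5 μg/L, 56 of 254 entries passed (22.0%, against 11.6% of all 18417 named entries), 38 of them higher and 18 lower at the high dose, against table-wide shares of 7.47% and 4.15%. By depth these were 52 of 161 entries between 10 and 50 normalized counts (32.3%, against 26.2%) and 4 of 93 with at least 50 (4.30%, against 9.13%). The 4 were LOC100147916, LOC100005516 (3.31, 1.96 to 5.82), LOC100536546 (2.49, 1.48 to 4.34) and, lower at the high dose, LOC100005420 (0.183, 0.0905 to 0.339). The counting interval lay beyond 1 for 34 of the 56, against 1890 of the 2140 changed entries of the whole table. The members nearest to the limits were LOC561535 inside with 2.02 and LOC100002415 outside with 1.92, and LOC100537736 inside with 0.498 and LOC100537603 outside with 0.571.

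The entries that match human HTRA2 had more reads at the high dose than in DMSO vehicle. HTRA2 is a serine protease of the mitochondrial intermembrane space that takes part in protein quality control and, once released, in cell death in mammals. The 11 noncoding entries with this match summed to 70.3 normalized counts in DMSO vehicle, 89.6 at the low dose and 164.9 at the high dose. At the high dose the ratio of the sums was 2.34 (1.78 to 3.10), and 5 of the 6 entries with 10 normalized counts were 2-fold higher. LOC793237, LOC559585 and LOC100330882 reached 10 normalized counts only at the high dose, with 4.74, 3.16 and 7.11 in DMSO vehicle. For them the minimum itself favoured a higher call, so this count adds no support to the ratio of the sums. The table-wide and mRNA counts below use the same minimum. The table-wide share 2-fold higher was 7.44% of all named entries, and 10.9% of those between 10 and 50 normalized counts. LOC100333082 had 18.2, 15.3 and 43.7 normalized counts from vehicle to the high dose, LOC793237 had 4.74, 9.84 and 27.5, and LOC562245, the one not past the criterion, had 10.3, 15.3 and 9.99. The 19 mRNA entries with the same human match summed to 335.1, 391.4 and 800.8 normalized counts, a ratio of 2.39 at the high dose (2.11 to 2.71), and 11 of the 17 with 10 normalized counts were 2-fold higher. The noncoding and the mRNA entries of this family were thus higher by about the same factor. At the low dose the ratios were 1.27 for the noncoding entries (0.932 to 1.74) and 1.17 for the mRNA entries (1.01 to 1.35). This family was picked after its values were seen, from the human matches shared by at least 5 of the entries. Its copies resemble each other, and how the authors placed reads that fit several copies is not given in the sources used here, so the split between its entries is uncertain.

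The retrotransposon-like entries had higher summed values at the high dose and lower ones at the low dose than in DMSO vehicle. The 299 entries summed to 1912.8 normalized counts in DMSO vehicle, 1698.8 at the low dose and 2181.1 at the high dose. The ratio of the sums was 1.14 at the high dose (1.07 to 1.21), 0.888 at the low dose (0.833 to 0.947) and 1.28 for 500 over 5 μg/L (1.20 to 1.38). At the high dose 42 of the 67 entries with 10 normalized counts had a log2 ratio above 0, with a median of 0.28, and 12 were 2-fold higher and 6 lower. At the low dose 24 of 65 were above 0, with a median of -0.21, and 5 were 2-fold higher and 8 lower. Some entries reached 10 normalized counts only in the library where they were higher. At the high dose LOC100538149 had 12.5 against 2.37 in DMSO vehicle, and LOC100538321 had 5.00 against 11.9. For such entries the minimum itself favoured a call, so these counts and medians add no support to the ratios of the sums. Table-wide, 12.2% of named entries passed in either direction at the high dose and 3.05% at the low dose. Between 10 and 50 normalized counts, where most noncoding calls lay, these shares were 23% and 15.3%. Of all named entries with 10 normalized counts, 49.1% had a log2 ratio above 0 at the high dose and 51.4% at the low dose. The 231 RTL1-matched entries gave 1.16 (1.08 to 1.24) and 0.913 (0.851 to 0.980), and the 39 PEG10-matched entries gave 1.29 (1.05 to 1.58) and 0.756 (0.599 to 0.95), at the high and the low dose. The 8 GIN1-matched entries were not higher at the high dose, with 0.918 (0.616 to 1.36), and gave 0.561 at the low dose (0.354 to 0.868). For 71 mRNA entries of the same description the ratio was 0.918 at the high dose (0.890 to 0.948) and 0.995 at the low dose (0.966 to 1.02). Their median log2 ratio at the high dose was 0.04, with 3 entries 2-fold higher and 3 lower of 51. Their sum and their median thus lay on opposite sides of no change. The 2 sets differ in make-up, since only 24 of the mRNA entries match RTL1. These gave 1.03 at the high dose (0.934 to 1.13), an interval that overlaps that of the noncoding RTL1 matches. The 12 GIN1-matched mRNA entries gave 1.24 (1.03 to 1.48), and the 2 PEG10-matched ones gave 1.09 (0.456 to 2.49). The highest of the retrotransposon-like entries was LOC100536493, with 169.9, 165.1 and 204.9 normalized counts from vehicle to the high dose. Copies of one element are near-identical, and which copy such a read came from is uncertain.

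**Figure D5:**
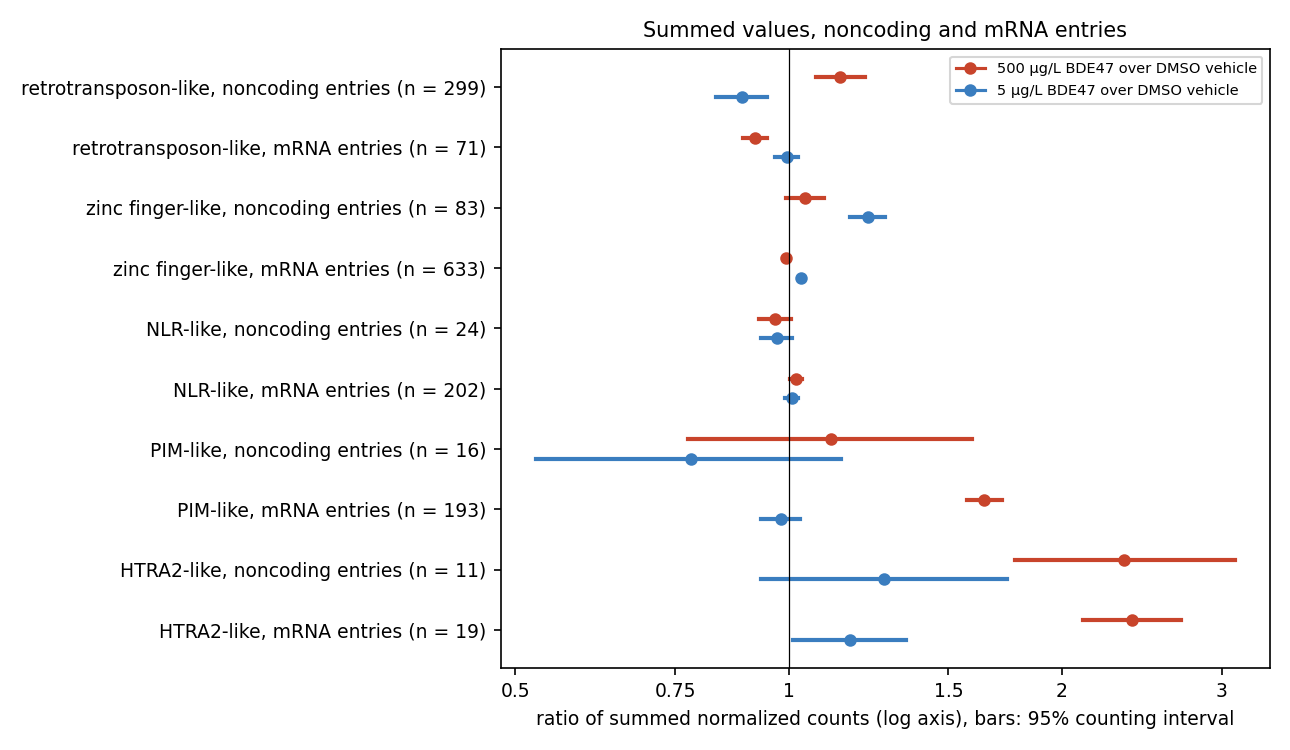
Ratio of the summed normalized counts to DMSO vehicle (log axis, bars are 95% counting intervals, n is the number of entries) at 500 μg/L and 5 μg/L BDE47, for noncoding RNA entries and mRNA entries of the same description. The HTRA2-like sums are higher at 500 μg/L in both kinds of entry (2.34 and 2.39), and the zinc finger-like noncoding entries are higher at 5 μg/L (1.22).

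The zinc finger-like entries had their highest sum at the low dose. Most of these resemble C2H2 zinc finger proteins, a large family of DNA-binding factors. The 83 entries summed to 3340.2 normalized counts in DMSO vehicle, 4085.2 at the low dose and 3479.1 at the high dose, and the ratio of the sums was 1.22 at the low dose (1.17 to 1.28) and 1.04 at the high dose (0.993 to 1.09). At the low dose 4 were 2-fold higher and 1 lower of 59, where 4 were higher and 7 lower of 577 zinc finger-like mRNA entries and 3.05% of all named entries passed in either direction. Each of the changed noncoding entries lay between 10 and 50 normalized counts, where 15.3% of all named entries passed. LOC100330706, LOC100330188 and LOC100535335 reached 10 normalized counts only at the low dose, with 5.53, 8.69 and 8.69 in DMSO vehicle. For them the minimum itself favoured a higher call, so the counts of changed entries add no support to the ratio of the sums. Of the same 59 entries 49 had a log2 ratio above 0, with a median of 0.27, where 51.4% of all named entries were above 0. LOC794798, chosen after its values were seen, had 104.3 normalized counts in DMSO vehicle, 166.2 at the low dose and 136.2 at the high dose (1.59 at the low dose, 1.25 to 2.03). For 633 mRNA entries of the same description the sums gave 1.03 at the low dose (1.03 to 1.04) and 0.993 at the high dose (0.986 to 0.999), and the median log2 ratio at the low dose was 0.10. The group median was above 0 at the low dose in both kinds of entry. Of the human zinc finger matches shared by at least 5 of the noncoding entries, ZNF180, ZNF569, ZNF135 and ZNF721 also had mRNA entries. At the low dose the noncoding sums gave 1.34, 1.38, 1.34 and 1.30 in that order. The mRNA sums gave 1.18 (1.10 to 1.26), 1.25 (1.18 to 1.33), 1.08 (1.03 to 1.12) and 1.31. The intervals of the noncoding ZNF569 sum and of the mRNA ZNF721 sum include 1. These mRNA sums were thus higher at the low dose too.

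The sums of the 24 NLR-like entries differed little between libraries. They were 4793.0 normalized counts in DMSO vehicle, 4649.3 at the low dose and 4630.9 at the high dose, with ratios of 0.966 at the high dose (0.927 to 1.01) and 0.970 at the low dose (0.933 to 1.01), and LOC100005516 was the exception named above. Beside it, LOC100537947 was 2-fold higher at the high dose (2.11, 1.24 to 3.61) and LOC100331159 lower (0.365, 0.123 to 0.906), both chosen after their values were seen. The 16 PIM-like entries resemble PIM kinases, serine/threonine kinases that promote survival and growth of cells. They had 78, 44 and 55 reads in all in DMSO vehicle and at the low and high doses, and only 1 reached 10 normalized counts. Their summed ratio of 1.11 at the high dose had an interval of 0.775 to 1.59, and for 193 PIM-like mRNA entries the ratio was 1.64 (1.57 to 1.72). The 51 of these mRNA entries with 10 normalized counts had a median log2 ratio of only 0.01. Of them 12 were 2-fold higher and 2 lower, where 7.44% and 4.73% of all named entries were. The 1 noncoding entry past 10 normalized counts held 30.04 of the noncoding sum of 61.65 in DMSO vehicle. Its log2 ratio at the high dose was -0.56. The 12 noncoding entries that match PIM3, picked after their values were seen, gave 1.98 (1.12 to 3.53), from 30 against 24 reads. None of these reached 10 normalized counts, and 124 PIM3-matched mRNA entries gave 1.52 (1.45 to 1.60).

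For the 168 entries found in RefSeq, 42 overlap an mRNA gene that was measured, and the nearest measured gene was taken for the others. The antisense pairs and those of rpph1, LOC100005000 and LOC100536206 are given above. LOC100005420 was lower at the high dose, and its nearest measured gene LOC570839 had 0 normalized counts at the high dose against 7.90 in DMSO vehicle, from 10 reads. At the low dose LOC570839 had 2.19 normalized counts (ratio 0.277, 0.0295 to 1.30), where LOC100005420 had a ratio of 1.09. LOC100005516 overlaps LOC560148, which had a ratio of 1.42 at the high dose where the member had 4.58. For mir429b, with 1 read at the high dose, the overlapping gene ppil1 had a ratio of 0.735, and for mir2193 the nearest gene xrn2, a nuclear exonuclease, had 0.788. The gene nrxn1b, which overlaps rn7sk, had 0.821 at the high dose and 0.898 at the low dose. LOC100303724 had a ratio of 1.27 at the high dose where its nearest gene tbc1d8 had 0.618, with 121.2 normalized counts at the high dose against 196.0 in DMSO vehicle. The nearest genes of the other named entries had ratios at the high dose of 1.31 for pp (beside LOC100332314), 0.698 for LOC557524 (beside LOC100334202), 0.899 for ahi1 (beside LOC561457), 0.905 for LOC100000702 (beside mir142b) and 1.21 for LOC100332904 (beside mir29b-1).

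The proteins that make or remove noncoding RNAs were measured among the mRNA entries. Of 12 genes of microRNA processing and Argonaute proteins, 2 were 2-fold higher and 0 lower at the high dose, and 0 passed at the low dose. Table-wide, 7.44% of named entries were 2-fold higher and 4.73% lower at the high dose, and 1.02% and 2.03% at the low dose. Lists this short hold too few genes to be set apart from these shares. The median log2 ratio of the 12 was -0.21 at the high dose, with 5 of 12 above 0, and -0.05 at the low dose. The 2 higher genes were eif2c3, which encodes an Argonaute protein, with 41.1 normalized counts in DMSO vehicle, 43.7 at the low dose and 148.7 at the high dose, and lin28a, which blocks maturation of let-7 microRNAs, with 14.2, 16.4 and 42.5. Their ratios at the high dose were 3.62 (2.59 to 5.11) and 2.99 (1.64 to 5.61). The enzymes dicer1 and rnasen, which cut microRNA precursors, had ratios of 0.870 (0.813 to 0.931) and 0.743 (0.641 to 0.859) at the high dose. Lower ratios were found for tnrc6c, which encodes an Argonaute-binding repressor (0.591, 0.543 to 0.642), and for the Argonaute gene eif2c4, with 2146.7 normalized counts in DMSO vehicle, 1499.8 at the low dose and 1327.9 at the high dose (0.619, 0.576 to 0.664). Of 9 genes of small nucleolar ribonucleoproteins, which guide the modification of ribosomal RNA, 0 passed the 2-fold criterion, but all 9 had ratios above 1 at the high dose, from 1.21 for nop56 to 1.86 for rrp9, with a median log2 ratio of 0.79. The methyltransferase gene fbl had 1866.9 normalized counts in DMSO vehicle, 1866.0 at the low dose and 3223.0 at the high dose. At the low dose the median of these 9 was 0.11. Table-wide, 49.1% of named entries had a log2 ratio above 0 at the high dose and 51.4% at the low dose. None of the 4 Piwi pathway genes and none of the 18 genes of nonsense-mediated decay and the nuclear exosome passed the criterion at either dose, and their median log2 ratios at the high dose were 0.00 and -0.03.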

How the data were processed

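The authors mapped oligo(dT)-selected reads to the zebrafish genome (Zv9) and hg19, counted reads per gene and applied TMM scaling. The deposited signal is therefore a normalized count. The counting tool, strand handling and annotation version are not given in the sources used here. Whole reads were recovered by dividing each library by the value of a single read, and no quotient lay more than 0.00264 from a whole number. The column for DMSO carries the letter S, which the legend of the study gives as the solvent. Entries named by a clone prefix or question marks (20 entries, 15.9% to 16.1% of reads) were left out of the table-wide shares. Ratios are of the deposited values, and log2 ratios have 1 added to both values. Entries were grouped by description and human match. Named entries were the 10 highest in DMSO vehicle, up to 10 highest and 10 lowest ratios per comparison among changed entries with at least 50 normalized counts, and the 10 most abundant of a known RNA class. The members and lists were chosen with earlier results of these data known. RefSeq coordinates belong to another assembly, so no positions or sequences are printed. The ratio rules and alternative tests were tested on simulated data that held counting error only. Changes were planted only in entries well above the minimum of 10 normalized counts. The simulation therefore cannot show how the rules behave with variation between pools or for changes in the shallow entries. Alternatives were other minimums, scalings and pseudocounts, Fisher's exact test, edgeR's exact test and the MARS rule of DEGseq. Python 3.11.15, scipy 1.17.1 and edgeR 4.0.16 were used.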

Additional observations from a re-analysis of the deposited data

Results flagged for a closer look

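Of the 239 entries with 10 normalized counts in 1 library of both comparisons, 4 had counting intervals wholly on opposite sides of 1 at the 2 doses. The difference between the doses was not tested. The share of all named entries with such intervals was not computed, so the number 4 cannot be set against the whole table. LOC100147916, the alpha-1-antitrypsin homolog, had ratios to DMSO vehicle of 1.74 at 500 μg/L and 0.385 at 5 μg/L. LOC100303724 had 1.27 and 0.872, and LOC100148045 had 1.22 and 0.854, and these were the entries with the highest values at 500 μg/L. The pseudogene LOC100005415 had a ratio of 0 at 500 μg/L, from 0 reads, and 1.87 at 5 μg/L. The pooled noncoding entry wu, which names no gene and was left out, had 313019 normalized counts at 500 μg/L and 330020 at 5 μg/L, against 325428 in DMSO vehicle. In each library it held more reads than the 752 entries together.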

How the results depend on the processing

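The counts of changed entries depended on the minimum and on the test more than on the scaling. Against 45, 32 and 56 changed entries (500 μg/L against DMSO vehicle, 5 μg/L against DMSO vehicle, 500 against 5 μg/L), no minimum gave 322, 316 and 312, and a minimum of 50 normalized counts gave 6, 1 and 4. The tests and the counting interval were applied only to entries past the 2-fold criterion, so they could not raise these counts. After edgeR's exact test 5, 0 and 4 remained with an assumed BCV of 0.2, and 0, 0 and 0 with 0.4. A pseudocount of 5 gave 15 at 5 μg/L against DMSO vehicle and 32 for the doses. Fisher's exact test left 14 and 28 there, and a counting interval beyond 1 left 34 for the doses. Without a minimum the median log2 ratio was -0.18 at 5 μg/L against DMSO vehicle and 0.14 for 500 over 5 μg/L. In the other alternatives the 3 medians stayed within their order-statistic intervals, some with the other sign. These intervals take the entries of a library pair as independent and do not cover variation between pools. No direction is therefore read from the medians. The other counts stayed within 1.5 times. The fold changes of the named entries stayed within their counting intervals in 234 of 234 alternatives, but 2-fold calls near the limit were lost in some of them, as for LOC100332314 and LOC100534906. The scalings moved every entry by a small common factor, and the pseudocount drew ratios towards 1. Staying within the intervals was therefore likely beforehand and does not show that the fold changes are robust. The tests compare 2 libraries and not conditions. No paired analysis was possible because each condition had 1 library. The planned search of promoter sequences was not run, since no sequence was used here. The limits include few reads per entry and 1 library per condition.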
